A study of Mus musculus with 10 samples.

Results

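The 6 bulk RNA libraries of sorted Epcam+ cells, out of 10 samples in the series, compared the SHP2 inhibitor SHP099 with vehicle in mouse lung tumours. There were 3 libraries labelled SHP099 and 3 labelled Vehicle, and each group was described as Epcam+ cells sorted from dissociated tumour nodules. All mice carried tumours grown from KP cells, a line given intravenously to syngeneic mice, and all were treated for 11 days. KP is a mouse lung adenocarcinoma line. Every group rests on this 1 line, and the labels used here state no dose, age or sex. The other 4 samples were single-cell pools of live nodule cells that were not sorted on Epcam, with 3 hashtagged mice in each. Their treatments were vehicle, SHP099, the CXCR1 and CXCR2 inhibitor SX682, or both drugs, and they served here to say which cells carry a gene. The labels do not say whether bulk and single-cell samples came from the same mice.

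All 20314 genes with enough reads, of 55341 in the count table, were tested, and they were then split by a rule. A gene was set apart as carried by alveolar cells where its pooled level in the authors' single-cell cluster 24 was at least 5 times that in clusters 21 and 23 combined. The level is in CPM, the reads of a gene in every 1000000 counted reads of a library, or its transcripts in every 1000000 of a group of cells. The rule left 14085 tested genes as not carried by alveolar cells and set 2530 apart. A further 379 tested genes had no transcript in these 3 clusters and 3320 were absent from the single-cell gene list, so the rule could not place them. Cluster 24 held more than 1 normal epithelial type. All 14 alveolar type 2 markers had their highest level among 33 clusters there, and so did 7 of 8 airway secretory and 7 of 8 ciliated markers. The keratins Krt8, Krt18 and Krt19, Epcam and Cdh1 peaked in clusters 21 or 23, the tumour clusters. Cluster 24 held 349 cells and the tumour clusters 4093, and 5706 of the genes left in had under 10 transcripts in cluster 24, so that their ratio is imprecise. At the edge of the rule stood Rgs11 and Aldh3b1, just inside with ratios of 4.97 and 4.995 and bulk log2 fold changes of 0.08 and 0.04. Acaca and Ptp4a3 stood just outside, with ratios of 5.007 and 5.01 and log2 fold changes of -0.28 and 0.24.

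SHP2, the phosphatase encoded by Ptpn11, couples receptor tyrosine kinases to RAS, and inhibitors such as SHP099 hold it in a closed, inactive shape. Signals that pass through it reach ERK, whose output includes the dual-specificity phosphatases, the Sprouty and Spred inhibitors and the Etv transcription factors. Epithelial tumour cells also secrete chemokines that bind CXCR2 on neutrophils, among them Cxcl1, Cxcl2, Cxcl3 and Cxcl5. Lung around a tumour holds alveolar type 2 cells, which make surfactant and carry Epcam on their surface.

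Genes of the CXCR2 ligand list lie side by side on chromosome 5. Of them Cxcl5, not carried by alveolar cells, and Cxcl15, carried by them, were called in opposite directions. The promoters of 4 genes of the list are shown for this reason, but Cxcl5 had no entry among the promoter sequences used. They are followed by that of Nt5e, which fell and is not carried by alveolar cells, and that of Sftpb, a surfactant gene that fell. Each line gives the 250 bases before the RefSeq start (GRCm38.p6, the build of mm10; plus strand), 5′ to 3′. The positions are chr5:90890995-90891244, chr5:90903649-90903898, chr5:90785851-90786100, chr5:90794284-90794533, chr9:88327359-88327608 and chr6:72304360-72304609 in the order printed. In the GENCODE vM21 annotation Nt5e starts at 88327197, so the stretch printed for it lies inside the gene as annotated there. Capitals mark the NF-kappaB consensus and the AP-1 site TGANTCA, searched on both strands. Of the 21 called genes and members of the CXCR2 ligand list with an entry, out of 28, these 6 are printed.
Cxcl1: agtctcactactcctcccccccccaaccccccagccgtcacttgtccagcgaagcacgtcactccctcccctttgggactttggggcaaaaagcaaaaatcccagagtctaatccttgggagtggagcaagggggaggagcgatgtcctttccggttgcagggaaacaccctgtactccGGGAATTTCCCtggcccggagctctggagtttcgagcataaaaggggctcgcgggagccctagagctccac
Cxcl2: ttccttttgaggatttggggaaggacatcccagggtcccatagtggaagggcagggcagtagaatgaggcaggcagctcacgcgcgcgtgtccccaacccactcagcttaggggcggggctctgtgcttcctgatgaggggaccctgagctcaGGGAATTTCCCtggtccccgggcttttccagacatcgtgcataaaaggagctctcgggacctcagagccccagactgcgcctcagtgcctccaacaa
Cxcl3: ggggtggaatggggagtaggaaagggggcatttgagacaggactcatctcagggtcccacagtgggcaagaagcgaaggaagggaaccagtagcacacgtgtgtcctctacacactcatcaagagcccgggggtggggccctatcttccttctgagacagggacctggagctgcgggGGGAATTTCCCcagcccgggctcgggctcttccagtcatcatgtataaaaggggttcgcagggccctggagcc
Cxcl15: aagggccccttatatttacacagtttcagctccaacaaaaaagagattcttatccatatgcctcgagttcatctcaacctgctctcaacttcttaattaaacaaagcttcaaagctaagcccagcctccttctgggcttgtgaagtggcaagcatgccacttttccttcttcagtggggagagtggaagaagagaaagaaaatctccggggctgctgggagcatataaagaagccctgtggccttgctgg
Nt5e: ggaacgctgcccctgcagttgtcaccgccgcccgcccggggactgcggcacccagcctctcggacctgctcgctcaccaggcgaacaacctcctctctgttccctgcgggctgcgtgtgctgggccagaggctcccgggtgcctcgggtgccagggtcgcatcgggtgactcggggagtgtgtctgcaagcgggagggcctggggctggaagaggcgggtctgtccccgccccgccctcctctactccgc
Sftpb: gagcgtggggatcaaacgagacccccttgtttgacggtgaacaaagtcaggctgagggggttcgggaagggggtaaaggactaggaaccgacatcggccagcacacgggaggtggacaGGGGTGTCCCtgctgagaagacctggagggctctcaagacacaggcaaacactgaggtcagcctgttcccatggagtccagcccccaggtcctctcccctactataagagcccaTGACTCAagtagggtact

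Cxcl1, Cxcl2 and Cxcl3 each hold the same NF-kappaB match, found on both strands, between 61 and 97 bases before the start. The promoter of Cxcl15 holds none, nor does the stretch printed for Nt5e, and the promoter of Sftpb holds 1 other match and an AP-1 site. Such a match was found in 3.75% of 27025 promoters of this length, and the AP-1 site in 6.87%. The NKX2-1 site CACTTGA was searched too; it was in 2.74% of promoters and in none of the 6. These are matches of letters only.

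The libraries held 51939301 to 73361005 counted reads, and the 10 most abundant genes took 3.53 to 4.23% of them. Mitochondrial genes took 1.54 to 1.94% of reads in vehicle and 1.85 to 2.04% in SHP099 libraries. Replicates differed by a biological coefficient of variation of 30.4%. The labels name no cultures or animals beyond a sample number, so p-values measure the spread between these samples. Markers of cells other than epithelium were present in every library: endothelial markers summed to 1469.7 to 2551 CPM in vehicle and 853 to 3210.2 CPM in SHP099 libraries, fibroblast markers to 1289 to 2306 CPM in vehicle and 449 to 806 CPM in SHP099 libraries, and macrophage markers to 677 to 738 CPM in vehicle and 346 to 529 CPM in SHP099 libraries. T cell markers summed to 5.11 to 13.6 CPM in vehicle and 8.37 to 13.9 CPM in SHP099 libraries. Ptpn11, the gene of the drug's target, stood at 80.5, 86.5 and 88.3 CPM in vehicle libraries 1, 2 and 3 and 81.3, 86.7 and 85.5 CPM in SHP099 libraries 1, 2 and 3, a log2 fold change of -0.01 ± 0.09 (SE, edgeR adjusted p = 0.984), and the groups overlapped.

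In the comparison as a whole 23 genes passed an adjusted p of 0.05, 0.113% of those tested. Of these 22 were lower after SHP099 (0.108%) and Cxcl5 alone was higher. The alveolar-carried set supplied 20 of the 23, all lower, which is 0.791% of its genes. The genes not carried by alveolar cells supplied 3, or 0.0213%: Cxcl5 rose, and Nt5e and Aldh1a3 fell. DESeq2 called 569 genes (2.35% of those it gave an adjusted p), 69 higher and 500 lower, and all 23 were among them. At an unadjusted p under 0.05 edgeR had 1812 genes, 8.92% of those tested. From here on a gene is called where it passed the adjusted edgeR test, unless DESeq2 is named. The 3 SHP099 and 3 vehicle libraries did not overlap for 14.9% of genes, 6.3% higher and 8.59% lower. With a library left out, fewer passed. Of the 23 calls, 15 remained when SHP099 library 3 was dropped and 9 when vehicle library 2 was. Dropping vehicle library 3, SHP099 library 1 or vehicle library 1 left 3, 2 or 1. Dropping SHP099 library 2 left 0, and edgeR then had 1471 genes at an unadjusted p under 0.05.

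**Figure D1:**
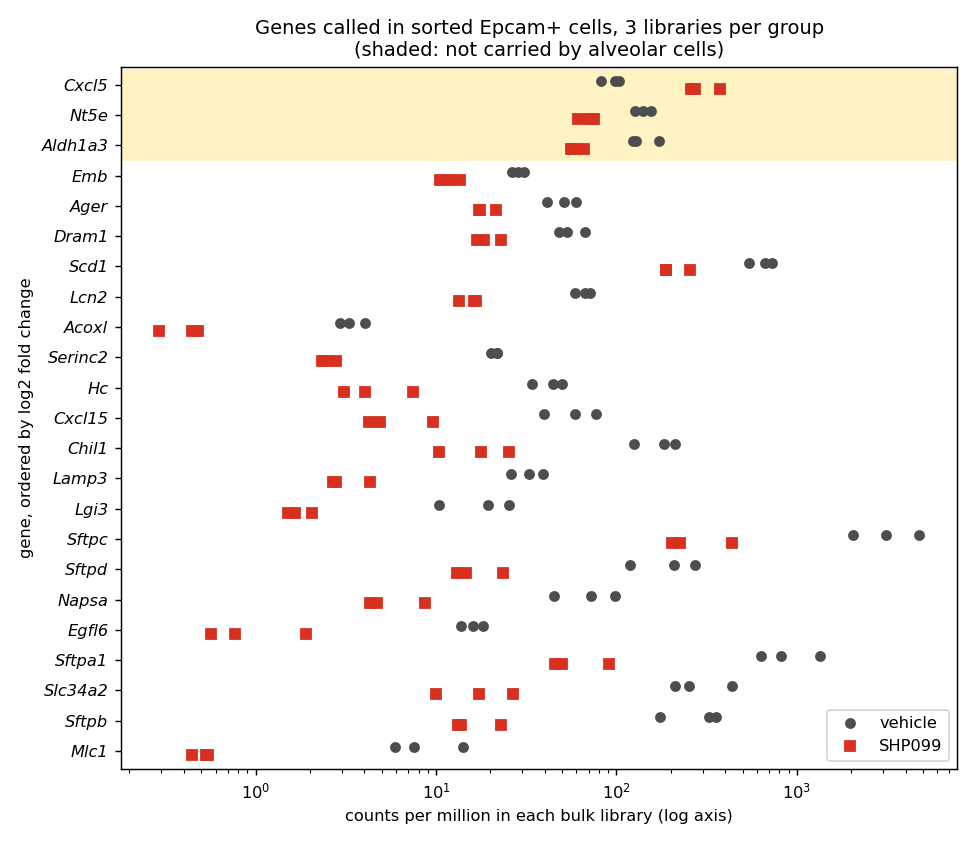
Level in CPM (log axis) of the 23 called genes in each of the 3 vehicle (grey circles) and 3 SHP099 (red squares) bulk libraries, with the 3 genes not carried by alveolar cells shaded. The groups do not overlap for any of the 23, and Cxcl5 is the 1 gene whose SHP099 libraries lie to the right.

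Cxcl5 (chromosome 5, 90759360 to 90761624, mm10, GENCODE vM21) encodes a neutrophil-attracting chemokine that binds CXCR2. It stood at 97.99, 103 and 81.6 CPM in vehicle libraries 1, 2 and 3 and 375, 271 and 259 CPM in SHP099 libraries 1, 2 and 3. Every SHP099 library was above every vehicle library, and the log2 fold change was 1.68 ± 0.17 (SE, edgeR adjusted p = 0.0313). Without SHP099 library 1, 2 or 3 it was 1.497, 1.75 or 1.80, and without vehicle library 1, 2 or 3 it was 1.73, 1.77 or 1.59. The call held only without SHP099 library 3. In the single-cell pools Cxcl5 was a gene of the tumour clusters, at 134 CPM there against 7.895 CPM in cluster 24, and its highest level was 164 CPM in the unnamed cluster 22. Summed over tumour cells of each mouse, it stood at 55.3, 55.5 and 61.1 CPM in vehicle mice 1, 2 and 3 and 188, 301 and 141 CPM in SHP099 mice 1, 2 and 3, and the log2 fold change was 1.89 ± 0.30 (SE, edgeR adjusted p = 0.0014). Both assays had the gene higher with SHP099.

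Nt5e (chromosome 9, 88327197 to 88372092) encodes CD73, the surface enzyme that turns AMP into adenosine. It stood at 127, 140.3 and 155 CPM in vehicle libraries 1, 2 and 3 and 70.7, 74.7 and 61.5 CPM in SHP099 libraries 1, 2 and 3, and fell from 141 ± 13.97 to 68.95 ± 6.79 CPM (SD, n = 3). Every SHP099 library lay below every vehicle library, and the log2 fold change was -1.03 ± 0.12 (SE, edgeR adjusted p = 0.0415). Its level was similar in cluster 24 and in the tumour clusters (17.8 and 21.9 CPM), and highest in the unnamed cluster 27 (106 CPM). In single-cell tumour sums its log2 fold change was -0.69 ± 0.38 (SE, edgeR adjusted p = 0.251). Aldh1a3 (chromosome 7, 66390890 to 66427517), an enzyme that makes retinoic acid from retinal, stood at 123, 128 and 172 CPM in vehicle libraries 1, 2 and 3 and 65.8, 57.7 and 56.1 CPM in SHP099 libraries 1, 2 and 3. These groups did not overlap either, and Aldh1a3 fell by 1.24 ± 0.15 on the log2 scale (SE, edgeR adjusted p = 0.044). No transcript of it was counted in cluster 24. The tumour clusters held 30.5 CPM and cluster 20, in which all 8 fibroblast markers peaked, held 50.7 CPM. Its single-cell tumour value was -1.07 ± 0.42 (SE, edgeR adjusted p = 0.106). Both genes lost their call without any 1 of the 6 libraries, with log2 fold changes of -1.09 to -0.93 for Nt5e and -1.31 to -1.07 for Aldh1a3. When only the genes not carried by alveolar cells were fitted, edgeR called 0 of them (1156 at an unadjusted p under 0.05). DESeq2 on all genes called 273 of the genes not carried by alveolar cells; among those that edgeR tested it called 44 higher and 221 lower.

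Below the threshold, the 15 genes of smallest p in each direction that alveolar cells do not carry were taken, among those with groups that did not overlap and a mean of at least 3 log2 CPM. Those chosen for higher values began with Cxcl5 and went on with Cxcl1, another CXCR2 ligand (chromosome 5, 90891241 to 90893115), at 87.4, 89.3 and 74.4 CPM in vehicle libraries 1, 2 and 3 and 161, 169.7 and 223 CPM in SHP099 libraries 1, 2 and 3. Cxcl1 missed the threshold in edgeR, at 1.14 ± 0.15 (SE, edgeR adjusted p = 0.0569), and passed it in DESeq2 (DESeq2 adjusted p = 7.15e-07). Its single-cell tumour value was -0.05 ± 0.37 (SE, edgeR adjusted p = 0.961). The highest single-cell level of Cxcl1 was in cluster 20 (255 CPM against 110 CPM in tumour clusters). Wnt10a, a Wnt ligand, stood at 28.4, 32.4 and 20.2 CPM in vehicle libraries 1, 2 and 3 and 44.1, 82.3 and 69.8 CPM in SHP099 libraries 1, 2 and 3, so that SHP099 libraries 2 and 3 were the highest. Nrg1, a ligand of ERBB3 and ERBB4, stood at 11.4, 8.57 and 11.5 CPM in vehicle libraries 1, 2 and 3 and 15.95, 19.2 and 22.3 CPM in SHP099 libraries 1, 2 and 3. Its log2 fold change was 0.87 ± 0.19 (SE, edgeR adjusted p = 0.193) in bulk and 1.19 ± 0.32 (SE, edgeR adjusted p = 0.0256) in single-cell tumour sums. The highest level of Nrg1 was in the unnamed cluster 27 (52.8 CPM against 10.5 CPM in tumour clusters). Rasgrp3, an activator of RAS proteins, ranged over 29.96 to 54.3 CPM in vehicle and 75.7 to 105 CPM in SHP099 libraries. Its highest single-cell level was in cluster 10 (176 CPM against 2.098 CPM in tumour clusters), where the endothelial markers peaked. Mptx1, a mucosal pentraxin of the gut, ranged over 12.6 to 20.4 CPM in vehicle and 29.1 to 45.5 CPM in SHP099 libraries and was highest in tumour cluster 21. The other 9 were Hap1, Pnkd, Rogdi, Cryz, Gas2, Plekhf1, Rnf32, Tdrp and C2, with log2 fold changes of 0.48 to 0.89. All 15 passed in DESeq2, but they were chosen by p and separation in the same libraries, so this adds no separate support. Another cluster held at least 5 times the tumour level for 4 of the 15, against 4889 of all 14085 genes not carried by alveolar cells. Exons of Cryz, Gas2, C2, Rogdi and Nrg1 here, of Napsa, Hc and Emb among the called genes, and of Sphk1, Col5a1, Thbs1 and Spsb1 among the lower ones below overlap those of another annotated gene, and the reads were counted without strand, so reads of the partner gene cannot be told apart. The same holds for Abca3, Hopx, Col3a1, Pdgfra, Krt8, Dusp5, Spry1, Spred3, Phlda1, Fosl1, Ccnd1, Erbb2, Fgfr1, Vcam1, Irf1, Gbp2, Fn1, S100a4, Pkm and Scd2 further on.

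The 15 chosen for lower values included collagens, thrombospondins and other genes of the matrix. In 10 of 15 the highest single-cell level was in cluster 20, in 0 it was in a tumour cluster, and 13 had a cluster with at least 5 times the tumour level. Such a cluster existed for 4889 of all 14085 tested genes not carried by alveolar cells. Col5a1, a fibrillar collagen chain, stood at 96.2, 125 and 92.05 CPM in vehicle libraries 1, 2 and 3 and 45.3, 37.1 and 23.9 CPM in SHP099 libraries 1, 2 and 3. Cd248, the pericyte and fibroblast protein endosialin, stood at 21.03, 30.8 and 18.04 CPM in vehicle libraries 1, 2 and 3 and 6.57, 5.73 and 4.28 CPM in SHP099 libraries 1, 2 and 3, with a log2 fold change of -2.08 ± 0.26 (SE, edgeR adjusted p = 0.0528). Cthrc1, a secreted protein of matrix-producing fibroblasts, ranged over 14.4 to 16.4 CPM in vehicle and 1.93 to 4.84 CPM in SHP099 libraries, a log2 difference of -2.24. Aldh1a2, which makes retinoic acid as Aldh1a3 does, ranged over 58.1 to 104 CPM in vehicle and 11.9 to 24.04 CPM in SHP099 libraries. Its level was 541 CPM in cluster 20 and 1.38 CPM in the tumour clusters. Thbs1, thrombospondin 1, had a tumour level of 146 CPM and ranged over 218 to 273 CPM in vehicle and 130.3 to 157 CPM in SHP099 libraries. Its highest single-cell level was 4130 CPM in cluster 31, and its single-cell tumour value was -0.001 ± 0.36 (SE, edgeR adjusted p = 0.999). Tgfbi, a matrix protein induced by TGF-beta, stood at 61.2, 63.2 and 51.3 CPM in vehicle libraries 1, 2 and 3 and 27.5, 22.5 and 14.8 CPM in SHP099 libraries 1, 2 and 3. Its log2 fold changes were -1.44 ± 0.23 (SE, edgeR adjusted p = 0.0847) in bulk and -1.32 ± 0.39 (SE, edgeR adjusted p = 0.0398) in tumour sums. The highest single-cell level of Tgfbi was 684 CPM in cluster 13, against 21.8 CPM in the tumour clusters. The part of other cells in either value was not tested. The others were Nt5e, Aldh1a3, Bmper, Col5a3, Pygl, Sphk1, Emilin2, Thbs2 and Spsb1. Beside these, the 8 fibroblast markers summed to 1289 to 2306 CPM in vehicle and 449 to 806 CPM in SHP099 libraries. Col1a1, Col1a2 and Col3a1, collagen chains, stood at -1.73, -1.27 and -1.26 in log2 fold change, and DESeq2 called them lower. These 3 fall in the alveolar-carried set by the rule, with ratios of 5.38, 9.498 and 5.75, though cluster 20 held more of them. The receptors Pdgfra and Pdgfrb were at -0.55 and -0.36, and Mfap5, a microfibril protein, at 0.58. edgeR called 0 of the 8 (4 of 8 at an unadjusted p under 0.05), against 8.92% of all genes at that p. Of the genes not carried by alveolar cells that edgeR tested too, DESeq2 called 120 lower and 5 higher of the 868 that cluster 20 held at 5 times the tumour level or more. It called 101 lower and 39 higher of the other 13217. The median log2 fold change was -0.40 in the first set and 0.03 in the second. In bulk RNA fewer cells of a type and less RNA per cell cannot be told apart, and the part of fibroblast RNA in these values was not tested.

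**Figure D2:**
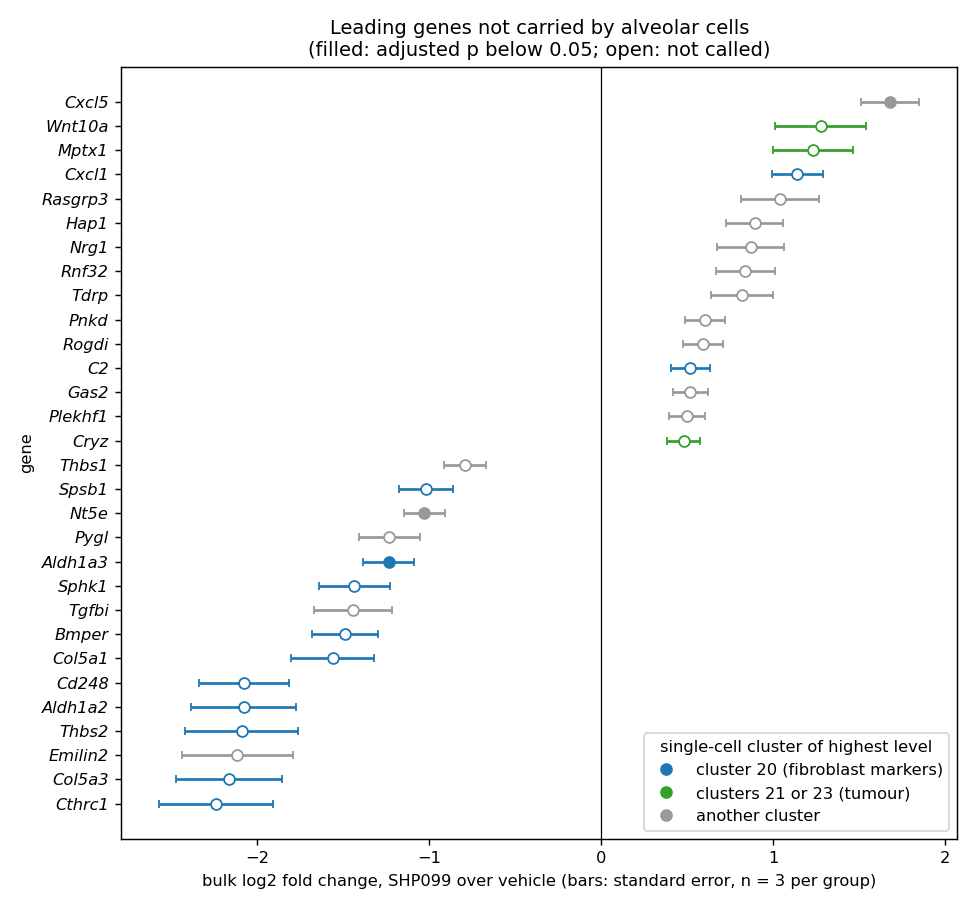
Bulk log2 fold change with its standard error (n = 3 per group) of the 30 leading genes not carried by alveolar cells, coloured by the single-cell cluster in which the gene was highest. Filled points passed an adjusted p of 0.05. Of the 15 lower genes 10 are highest in cluster 20, and of the 15 higher genes 2 are.

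Among genes carried by alveolar cells, the surfactant programme of type 2 cells was lower in all SHP099 libraries. Of 14 alveolar type 2 markers, 10 were called lower, against 0.108% of all genes tested. The groups did not overlap for any of the 14, where 8.59% of all genes were apart and lower. The median log2 fold change of the 14 was -3.39, against -0.00 over all genes tested. The sum of the 14 was 3792 to 8019.6 CPM in vehicle and 541 to 879.9 CPM in SHP099 libraries. Sftpa1, which encodes surfactant protein A, stood at 813, 629.8 and 1339 CPM in vehicle libraries 1, 2 and 3 and 49.6, 45.7 and 90.3 CPM in SHP099 libraries 1, 2 and 3. Sftpb, surfactant protein B, stood at 326, 174 and 356 CPM in vehicle libraries 1, 2 and 3 and 13.8, 13.3 and 22.9 CPM in SHP099 libraries 1, 2 and 3, and Sftpc, surfactant protein C, at 3109, 2055 and 4773 CPM in vehicle libraries 1, 2 and 3 and 202, 224 and 436 CPM in SHP099 libraries 1, 2 and 3. In each of these, vehicle library 2 was the lowest of its group, SHP099 library 3 the highest of its own, and the groups did not overlap. The phosphate transporter Slc34a2 had a log2 fold change of -4.06 ± 0.43 (SE, edgeR adjusted p = 0.0313), and the lung-restricted chemokine Cxcl15 of -3.22 ± 0.38 (SE, edgeR adjusted p = 0.0415). The aspartic protease Napsa was at -3.60 ± 0.38 (SE, edgeR adjusted p = 0.0313), Hc, which encodes complement C5, at -3.14 ± 0.35 (SE, edgeR adjusted p = 0.0331), and the lamellar body protein Lamp3 at -3.31 ± 0.26 (SE, edgeR adjusted p = 0.0146). Abca3, the lamellar body lipid pump, Lpcat1, an enzyme of surfactant lipid synthesis, and Etv5 were at -0.33, -0.75 and -0.80. They were not called by edgeR, and DESeq2 called Lpcat1 and Etv5 lower. The tumour clusters held 33.5, 11.7 and 5.07 CPM of them. Lyz1 was at -3.48 with an SE of 0.64, not called by edgeR and called by DESeq2 (DESeq2 adjusted p = 7.98e-04), which called 13 of the 14.

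Markers of the other epithelial types showed fewer calls. Of 9 alveolar type 1 markers edgeR called 1 lower, Ager, a receptor of type 1 cells, and DESeq2 called Aqp5 and Pdpn lower as well. Ager stood at 59.8, 41.2 and 51.4 CPM in vehicle libraries 1, 2 and 3 and 17.5, 21.5 and 17.2 CPM in SHP099 libraries 1, 2 and 3. Aqp5 and Pdpn stood at -0.97 and -1.54 in log2 fold change, and Cav1, Clic5 and Hopx, which peaked in cluster 10, at 0.35, 0.97 and 0.32. edgeR called 0 of 8 airway secretory markers (1 of 8 at an unadjusted p under 0.05; median -0.19) and 0 of 8 ciliated markers (2 of 8 at an unadjusted p under 0.05; median -0.40), and DESeq2 called 0 of both. Over all genes 8.92% had an unadjusted p under 0.05 in edgeR. Scgb1a1, the main secretory protein of club cells, ranged over 381 to 729 CPM in vehicle and 292 to 523 CPM in SHP099 libraries, and the groups overlapped. The difference between type 2 and airway genes was itself not tested.

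Lcn2, which encodes the iron-trapping protein lipocalin 2, stood at 71.5, 59.2 and 67.1 CPM in vehicle libraries 1, 2 and 3 and 16.7, 16.2 and 13.3 CPM in SHP099 libraries 1, 2 and 3. The groups lay far apart, and the log2 fold change was -2.10 ± 0.14 (SE, edgeR adjusted p = 0.00748). Its level was 1484 CPM in cluster 24, 38.98 CPM in the tumour clusters and 4528 CPM in cluster 31. The neutrophil markers S100a8 and S100a9 also peaked in cluster 31. Within tumour sums of the single cells Lcn2 fell as well, -1.24 ± 0.37 (SE, edgeR adjusted p = 0.04). Within cluster 24 Lcn2 stood at 1066, 845 and 4138 CPM in vehicle and 2167, 1659 and 2525 CPM in SHP099 mice, with overlapping groups. Serinc2 stood at 20.1, 21.8 and 21.7 CPM in vehicle libraries 1, 2 and 3 and 2.78, 2.47 and 2.32 CPM in SHP099 libraries 1, 2 and 3, with little spread in either group, with an SE of 0.17 around -3.07. Its class rests on 17.8 CPM in cluster 24 against 0.215 CPM in tumour clusters, and its highest level was 60.7 CPM in cluster 20, where the fibroblast markers peaked. Scd1, the desaturase that makes oleic acid, stood at 726, 543 and 663 CPM in vehicle libraries 1, 2 and 3 and 188, 189 and 256 CPM in SHP099 libraries 1, 2 and 3, a log2 fold change of -1.61 ± 0.17 (SE, edgeR adjusted p = 0.0313). Its tumour sums in single cells were at 0.04 ± 0.16 (SE, edgeR adjusted p = 0.923). Scd1 alone was called among 23 genes of cholesterol and fatty acid synthesis, whose median was -0.02. Scd2, Fasn and Acly stood at 0.02, -0.08 and -0.01. The called genes also included Chil1, a chitinase-like protein (-3.28), Dram1, a lysosomal protein of autophagy (-1.53), Emb, the membrane glycoprotein embigin (-1.26), Egfl6 (-3.88), Lgi3 (-3.39), Mlc1 (-4.18), Sftpd (-3.55) and Acoxl (-3.07). Of these Emb was highest in cluster 9, not in cluster 24.

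The more of a gene cluster 24 held against the tumour clusters, the lower was the median bulk fold change. Among tested genes with at least 10 transcripts in cluster 24, the 4709 with a lower level there than in tumour clusters had a median log2 fold change of 0.05. The median was 0.0036 for the 3670 genes at 1 to 5 times, -0.13 for the 565 at 5 to 20 times, -0.43 for the 434 at 20 to 100 times and -0.80 for the 421 at 100 times or more. The groups were apart, with SHP099 lower, for 4.74, 6.703, 16.5, 29.3 and 47.03% of them in that order, with 8.59% over all genes. The 5 classes hold genes of 1 set of 6 libraries and are given as a description.

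**Figure D3:**
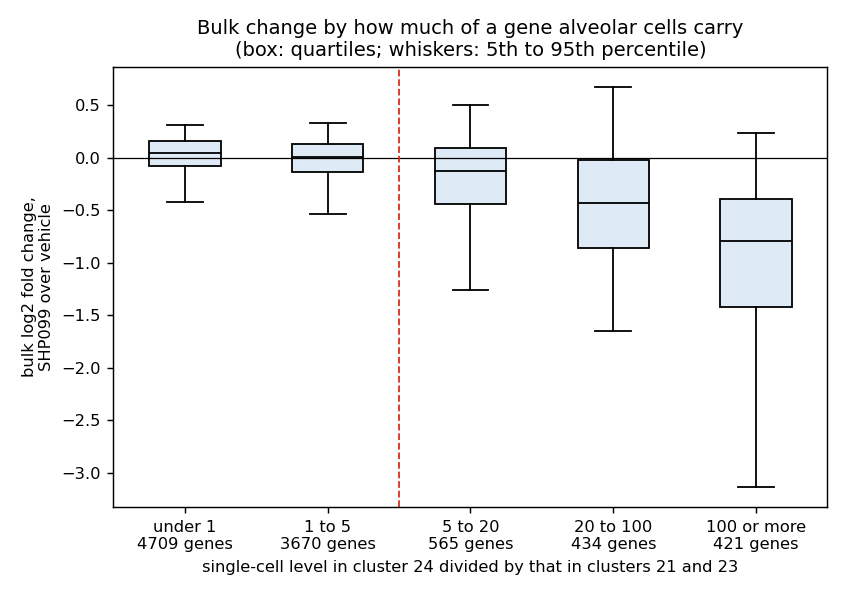
Bulk log2 fold change (y axis) of tested genes in 5 classes of the ratio between their single-cell level in cluster 24 and in tumour clusters 21 and 23 (x axis); boxes are quartiles, whiskers the 5th and 95th percentiles, and the dashed line the rule's ratio of 5. The median falls from 0.05 in the first class to -0.80 in the last.

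In the single-cell pools, which were not sorted on Epcam, the share of alveolar cells was not lower with SHP099. Cluster 24 made up 4.26, 2.06 and 1.36% of epithelial cells (clusters 21, 23 and 24) in vehicle mice 1, 2 and 3 and 30.4, 8.696 and 10.9% in SHP099 mice 1, 2 and 3. The mean share was 2.56 ± 1.51% against 16.7 ± 11.9% (SD, n = 3), and the exact two-sided permutation p was 0.1, the smallest that 3 against 3 can give. These rest on 50, 11 and 8 cells in vehicle and 34, 8 and 7 cells in SHP099 mice. Of all cells, cluster 24 was 0.469 ± 0.271% in vehicle and 0.488 ± 0.356% in SHP099 mice (exact permutation p = 0.9). Tumour clusters were 18.3 ± 3.44% and 2.42 ± 0.337% (exact permutation p = 0.1). Within cluster 24, Sftpa1 stood at 13331, 12019 and 11545 CPM in vehicle and 19052, 8626 and 15538 CPM in SHP099 mice, with overlapping groups. Lamp3 stood at 515, 307 and 697 and 1220.3, 901 and 959 CPM and Scd1 at 2206, 3149 and 4246 and 5591, 8152 and 8649.9 CPM in the same order. For Lamp3 and Scd1 every SHP099 mouse was above every vehicle mouse, the opposite order to the bulk libraries. Each treatment was 1 capture pool, so pool and treatment cannot be told apart. Of the barcodes, 1009 of 43973 distinct ones occurred in more than 1 pool.

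**Figure D4:**
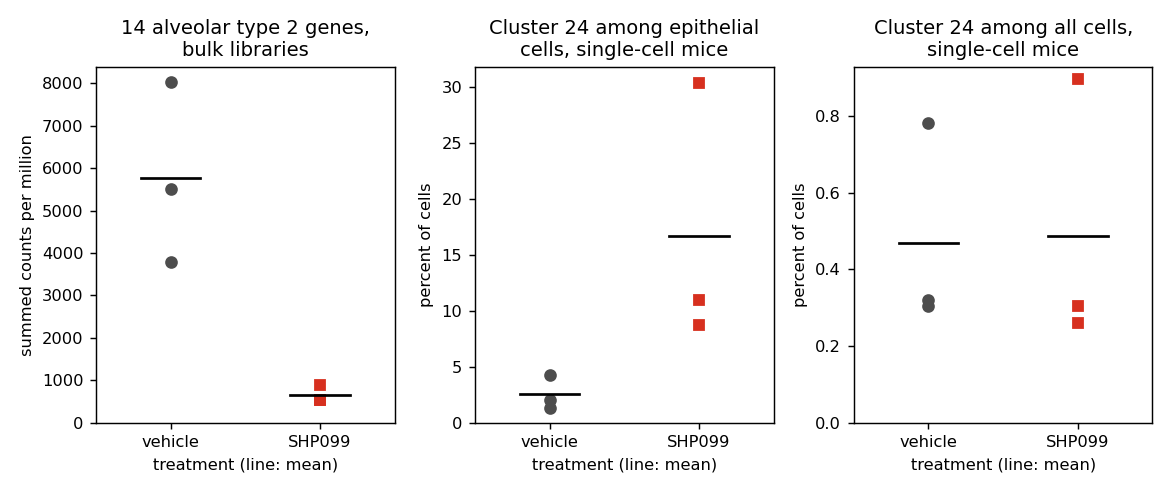
Summed CPM of the 14 alveolar type 2 genes in each bulk library (left), and the percent of cluster 24 cells among epithelial cells (middle) and among all cells (right) in each mouse of the vehicle and SHP099 single-cell pools, with group means as lines. SHP099 is lower in the left panel, at 541 to 879.9 CPM, and higher in the middle one, at 16.7% on average.

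After 11 days of treatment, edgeR called 0 of 20 ERK output and feedback genes (6 of 20 at an unadjusted p under 0.05), and DESeq2 called 2, Dusp5 and Etv5, both lower (-1.76 and -0.80 in log2 fold change). Over all genes tested 8.92% had an unadjusted p under 0.05, and DESeq2 called 2.35%. The median log2 fold change was -0.30 and 14 of 20 values were negative. Dusp6, a phosphatase that switches ERK off, ranged over 269.6 to 386 CPM in vehicle and 253 to 286 CPM in SHP099 libraries, at -0.37 ± 0.15 (SE, edgeR adjusted p = 0.539), and in single-cell tumour sums it was -0.53 ± 0.16 (SE, edgeR adjusted p = 0.041). Dusp5, the nuclear ERK phosphatase, stood at 43.5, 15.5 and 60.4 CPM in vehicle libraries 1, 2 and 3 and 7.97, 14.4 and 12.8 CPM in SHP099 libraries 1, 2 and 3, so vehicle library 2 lay close to the SHP099 libraries. The feedback inhibitors Spry4 and Spred2 stood at -0.55 and -0.46 with groups that did not overlap, and Spry1 at 0.39 in the other direction. Dusp4, Spry2, Spred1 and Spred3 stood at -0.32, -0.42, -0.17 and -0.27. Of the transcription factors, Etv4 was at -0.39, Fosl1 at -0.21, Egr1 at -0.41 and Myc at 0.15. Etv1, with under 2 CPM in all libraries, was at -0.67. Ccnd1, the cyclin of G1, was at 0.04, and Phlda1, Epha2, Epha4 and Ier3 were at 0.18, -0.24, 0.22 and 0.06. Among 13 immediate early genes edgeR called 0 (4 of 13 at an unadjusted p under 0.05), with a median of -0.34. Fosb, an AP-1 subunit called lower by DESeq2 (DESeq2 adjusted p = 0.0261), ranged over 56.6 to 70.2 CPM in vehicle and 39.9 to 44.9 CPM in SHP099 libraries.

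Upstream, 18 components of the SHP2 pathway had 0 calls in edgeR (3 of 18 at an unadjusted p under 0.05) and 0 in DESeq2, with a median of -0.13. Of all genes, 8.92% had an unadjusted p under 0.05 in edgeR, and DESeq2 called 2.35%. Map2k1, a kinase that activates ERK, stood at -0.31 in bulk and -0.81 ± 0.17 (SE, edgeR adjusted p = 0.00795) in tumour sums. Of 15 receptor tyrosine kinases edgeR called 0 (5 of 15 at an unadjusted p under 0.05), and DESeq2 called Egfr, Fgfr1 and Ret lower. Egfr stood at 49.04, 54.4 and 57.1 CPM in vehicle libraries 1, 2 and 3 and 25.2, 37.00 and 28.6 CPM in SHP099 libraries 1, 2 and 3, with groups apart, and Fgfr1 at 15.7, 20.1 and 19.4 CPM in vehicle libraries 1, 2 and 3 and 7.62, 7.67 and 6.01 CPM in SHP099 libraries 1, 2 and 3. Both were highest in cluster 20 (72.9 and 38.4 CPM against 8.23 and 0.628 CPM in tumour clusters). Erbb2, Met and Axl stood at 0.08, 0.15 and -0.02. The EGF receptor ligands had a median of -0.28 over 6 tested genes and 0 calls by edgeR (2 of 6 at an unadjusted p under 0.05) or DESeq2. Btc, betacellulin, stood at 149, 158 and 143 CPM in vehicle libraries 1, 2 and 3 and 91.9, 104 and 119 CPM in SHP099 libraries 1, 2 and 3, with groups apart. It was at -0.52 ± 0.12 (SE, edgeR adjusted p = 0.201) in bulk and fell in tumour sums, -1.28 ± 0.15 (SE, edgeR adjusted p = 1.38e-04). Areg and Hbegf were at -0.05 and 0.23.

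Among the 7 genes of the CXCR2 ligand list, whose promoters are printed above in part, Cxcl5 was called higher and Cxcl15 lower. DESeq2 added Cxcl1 higher and Pf4 lower, though Pf4, kept in the list, is not a ligand of CXCR2. The sum of the 7 was 255 to 297 CPM in vehicle and 479.8 to 583 CPM in SHP099 libraries, and the groups did not overlap. Cxcl5 and Cxcl1, both picked out above for their rise, made up most of this sum. Of the 7 log2 fold changes 4 were positive and 3 negative, and Cxcl15 fell from a mean of 58.2 CPM in vehicle to 6.26 CPM in SHP099 libraries. Cxcl2 ranged over 12.6 to 20.9 CPM in vehicle and 15.6 to 30.8 CPM in SHP099 libraries and Cxcl3 over 1.83 to 4.71 CPM in vehicle and 4.83 to 5.697 CPM in SHP099 libraries. The groups overlapped for Cxcl2, and neither was called (0.42 and 0.80). Ppbp and Pf4, platelet chemokines, stood at -1.42 and -2.07, with vehicle library 3 high in both (24.8 and 20.4 CPM). The receptor Cxcr2 ranged over 2.65 to 3.51 CPM in vehicle and 1.33 to 5.98 CPM in SHP099 libraries, and the neutrophil list it belongs to summed to 38.2 to 76.98 CPM in vehicle and 36.6 to 84.1 CPM in SHP099 libraries. NF-kappaB acts on several of these chemokine promoters. Here, of 22 genes of that pathway edgeR called 0 (7 of 22 at an unadjusted p under 0.05), the median was -0.02, and DESeq2 called Nfkbie higher and Ccl2 and Il6 lower. Of all genes, 8.92% had such a p in edgeR, and DESeq2 called 2.35%. Nfkbia, which encodes the main inhibitor of NF-kappaB, stood at 305, 369 and 312 CPM in vehicle libraries 1, 2 and 3 and 554.8, 404 and 378 CPM in SHP099 libraries 1, 2 and 3. It and Nfkbie, a related inhibitor, were at 0.44 and 0.67 in log2 fold change, with groups apart in both. Vcam1, an adhesion molecule, was at 0.56 ± 0.23 (SE, edgeR adjusted p = 0.543) in bulk and 1.23 ± 0.20 (SE, edgeR adjusted p = 0.00136) in tumour sums. Ccl2, a monocyte chemokine, and the cytokine Il6 were at -1.44 and -1.74, and both were highest in cluster 16.

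SHP099 library 1 stood apart for genes of the interferon gamma response. The 21 genes of the interferon gamma response summed to 739, 826 and 488 CPM in vehicle libraries and to 2398, 856 and 622 CPM in SHP099 libraries, so that SHP099 library 1 was far above the rest. Their median log2 fold change was 1.08, with 0 called by edgeR or DESeq2. In edgeR 2 of 21 had an unadjusted p under 0.05, against 8.92% of all genes. The median was -0.04 without SHP099 library 1. In single-cell tumour sums the median of this list was -1.05, with 0 of 19 called, where 13.5% of all genes were. The difference between the assays was not tested. The guanylate-binding protein Gbp2 stood at 35.9, 47.4 and 21.6 CPM in vehicle libraries 1, 2 and 3 and 175, 39.1 and 28.8 CPM in SHP099 libraries 1, 2 and 3, and the GTPase Iigp1 at 40.5, 51.6 and 28.8 CPM in vehicle libraries 1, 2 and 3 and 263, 37.8 and 21.4 CPM in SHP099 libraries 1, 2 and 3. Irf1, the transcription factor of this response, ranged over 138 to 199 CPM in vehicle and 199 to 305 CPM in SHP099 libraries, the lowest SHP099 library being level with the highest vehicle library, at 0.49 ± 0.20 (SE, edgeR adjusted p = 0.519). The 18 type I interferon genes summed to 530, 614 and 396 CPM in vehicle and 664, 526 and 364 CPM in SHP099 libraries. Their median was -0.09, with 0 called by edgeR (0 of 18 at an unadjusted p under 0.05). The MHC class I list had a median of 0.50, which was -0.13 without SHP099 library 1, and class II had 0.15 and -0.96. In single-cell tumour sums 4 of 8 class II genes were called lower (median -2.44), where 7.26% of all genes were. Of 14 class I genes there 1 was called higher (median -0.24), where 6.24% of all genes were. B2m, the light chain of class I, stood at 598, 649.6 and 291 CPM in vehicle libraries 1, 2 and 3 and 1252, 574 and 359.7 CPM in SHP099 libraries 1, 2 and 3. Psmb10, a subunit of the immunoproteasome, was called higher by DESeq2 and ranged over 75.1 to 96.7 CPM in vehicle and 124 to 170.0 CPM in SHP099 libraries. The same library was highest for endothelial markers (3210.2 CPM summed) and red cell genes (299.9 CPM summed), and their part in the interferon values was not tested.

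Neither the tumour epithelium list nor the gut list had an edgeR call in the bulk libraries. Of the tumour epithelium list edgeR called 0 of 8 (3 of 8 at an unadjusted p under 0.05), and DESeq2 called Cldn4 and Cldn7 lower. Krt8, Krt18 and Krt19, keratins of simple epithelium, stood at -0.27, -0.39 and -0.15, with overlapping groups. Epcam ranged over 297 to 341 CPM in vehicle and 206 to 628 CPM in SHP099 libraries. Gut-type genes were present, and edgeR called 0 of 14 (1 of 14 at an unadjusted p under 0.05), as did DESeq2. Hnf4a, a hepatic and intestinal regulator, ranged over 191 to 231 CPM in vehicle and 164 to 218 CPM in SHP099 libraries, Lgals4 over 830.2 to 1024 CPM in vehicle and 852 to 1268 CPM in SHP099 libraries and Cdh17 over 669 to 848 CPM in vehicle and 645 to 831 CPM in SHP099 libraries. Cldn4, Cldn7 and Cldn18, claudins highest in cluster 24, were at -2.42, -1.40 and -1.48. Nkx2-1, the lung regulator, stood at 7.85, 4.13 and 9.07 CPM in vehicle libraries 1, 2 and 3 and 2.04, 1.36 and 0.598 CPM in SHP099 libraries 1, 2 and 3 (DESeq2 adjusted p = 2.74e-05). Of 11 lung identity regulators edgeR called 0 (6 of 11 at an unadjusted p under 0.05, against 8.92% of all genes). DESeq2 called 4 lower, against 2.35% of all genes called either way. Their values were 5 positive and 6 negative, and 6 of 11 were highest in cluster 24. The 5 not carried by alveolar cells had a median of 0.19. Of 12 mesenchymal genes edgeR called 0 (6 of 12 at an unadjusted p under 0.05), and DESeq2 called 5 lower (of all genes 8.92% and 2.35%), Fn1, Cdh2, Snai1, S100a4 and Tgfbi, with a list median of -0.53. Fn1, fibronectin, stood at 1765, 2485 and 2567 CPM in vehicle libraries 1, 2 and 3 and 757, 790.5 and 1345 CPM in SHP099 libraries 1, 2 and 3, and its level was highest in cluster 20. Vim, the intermediate filament of mesenchymal cells, stood at -0.05 ± 0.13 (SE, edgeR adjusted p = 0.933). The 25 cell cycle genes had 0 calls by edgeR (0 of 25 at an unadjusted p under 0.05) and DESeq2 and a median of 0.24. Of their values 23 were positive and 2 negative, where 10125 of all 20314 genes were positive. The median was 0.05 to 0.43 with 1 library left out. The 22 genes of glycolysis and hypoxia had 0 calls by edgeR (2 of 22 at an unadjusted p under 0.05), 1 by DESeq2 and a median of -0.17 in bulk. There Ldha was at -0.17, Pkm at -0.16 and Aldoa at -0.08. In single-cell tumour sums 14 of 21 were called lower, with a median of -1.07, where 7.26% of all genes were called lower. Ldha, lactate dehydrogenase A, was -1.39 ± 0.15 (SE, edgeR adjusted p = 1.01e-04) there. The difference between the assays was not tested.

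**Figure D5:**
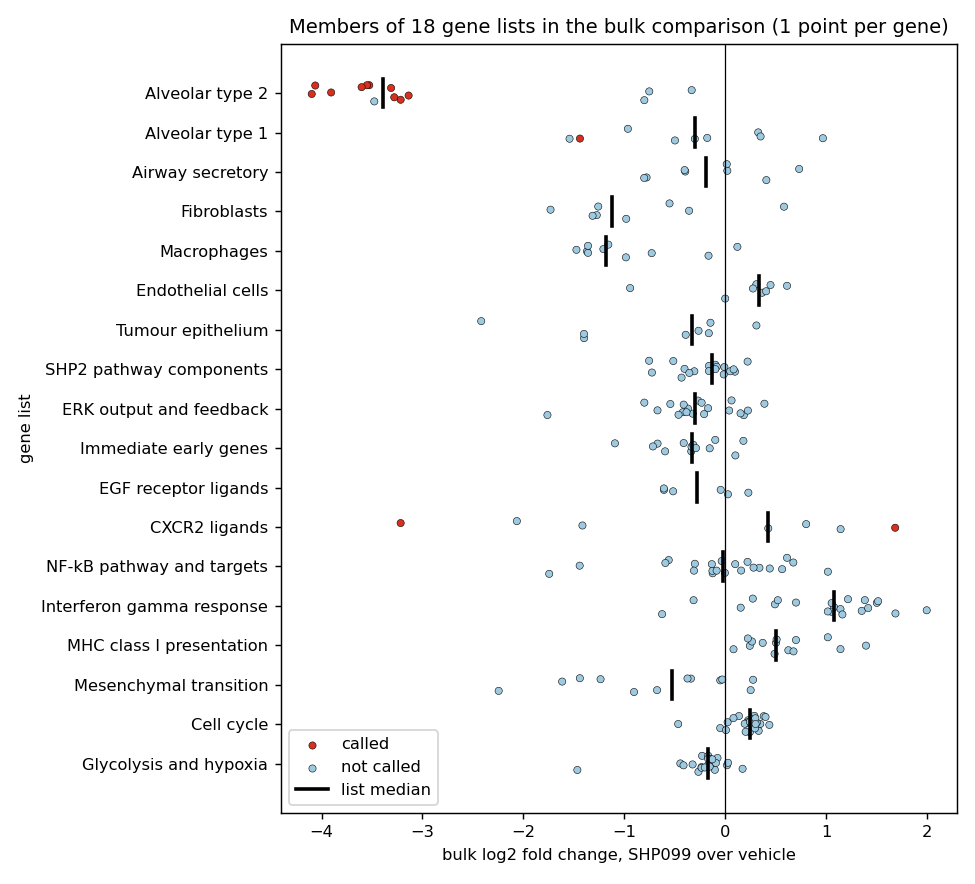
Bulk log2 fold change of each tested member (points, red where called) of 18 gene lists, with list medians as black lines. The alveolar type 2 list has its median at -3.39 and the interferon gamma list at 1.08, the latter -0.04 without SHP099 library 1; other medians lie between -1.18 and 0.50.

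Set beside the bulk values, the single-cell tumour sums of 3 SHP099 and 3 vehicle mice gave 1484 called genes of 10993 (13.5%), 686 higher (6.24%) and 798 lower (7.26%). The sums of SHP099 mice rest on few cells, 31, 21 and 15 of cluster 21 and 47, 63 and 42 of cluster 23. Vehicle mice had 596, 243 and 379 cells of cluster 21 and 527, 280 and 201 of cluster 23. Of the genes not carried by alveolar cells and tested in both assays (10520), log2 fold changes correlated with a Pearson r of 0.29 and a Spearman rho of 0.25. This is across genes, which are not independent, and the methods differ. Of 649 such genes called higher in single-cell sums, 518 (79.8%) were higher in bulk by sign and 1, Cxcl5, by the edgeR call. Of 774 called lower, 497 (64.2%) were lower by sign and 0 by the edgeR call. Over all 10520 genes 56.99% were higher and 43.01% lower in bulk by sign, and 58.7% had the same sign in both assays. Read from the bulk side with DESeq2, 3 of 26 genes called higher there, and 31 of 99 called lower, were called the same way in single cells, and 1 of each the opposite way. The 3 higher in both were Cxcl5, Nrg1 and Ifi203, an interferon-inducible gene. Genes lower in both included Sdcbp2, a syntenin-like adaptor whose highest level was in tumour cluster 21, at 234, 212 and 285 CPM in vehicle libraries 1, 2 and 3 and 117, 147 and 137 CPM in SHP099 libraries 1, 2 and 3. Its log2 fold changes were -0.87 in bulk and -1.52 in single cells. Ctsl, the protease cathepsin L, stood at 500.2, 386 and 437 CPM in vehicle libraries 1, 2 and 3 and 284, 243 and 304 CPM in SHP099 libraries 1, 2 and 3, at -0.67 and -0.70. Igfbp3, which binds insulin-like growth factors, was at -1.26 and -1.77, Vldlr, a lipoprotein receptor, at -0.66 and -1.52, and Krt23 at -0.86 and -0.90. These 4 were highest outside the tumour clusters, Ctsl in cluster 25, Vldlr in cluster 20, and Igfbp3 and Krt23 in cluster 22, with 233, 22.2, 188 and 44.3 CPM in tumour clusters. None of these 5 was called by edgeR in bulk (adjusted p of 0.0953 to 0.211), and they were chosen here after their values were seen. The list lower in both also held macrophage genes, among them C1qa, C1qb, Apoe, Trem2 and Pf4. Of all genes in bulk, 8.92% had an unadjusted p under 0.05 in edgeR, and DESeq2 called 2.35%. The macrophage list had a bulk median of -1.18 with 4 of 10 called lower by DESeq2 and 0 by edgeR (5 of 10 at an unadjusted p under 0.05). In single cells 6 of 9 were called lower in tumour sums, at a median of -1.58, where 7.26% of all genes were called lower. The part of macrophage RNA in either assay was not tested.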

How the data were processed

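The authors deposited bulk values as unnormalized read counts for each gene. The submitters' processing notes name STAR, Picard, HTSeq, DESeq2, bedtools and R 3.3.0 with the mm10 build; for the rest no version was given in the sources used. Per the labels the kit was stranded, while the tables' names say unstranded counting. Single-cell values are UMI counts that the authors deposited unnormalized, made with Cell Ranger; the cluster and mouse of each cell come from the authors' deposited annotation. Names of 31424 of 55341 bulk genes matched the single-cell list. Here edgeR 4.0.16 (TMM, filterByExpr, quasi-likelihood test, Benjamini-Hochberg over all genes tested, R 4.3.3) gave log2 fold changes, with SE as the fold change over the square root of F, and CPM on TMM-scaled library sizes; cluster CPM used unscaled totals. UMI counts of clusters 21 and 23 were summed per mouse, with at least 10 cells a mouse, and fitted with the mice of all 4 treatments. Shares were compared by exact permutation with scipy, and figures drawn with matplotlib. Scripts were tested on simulated counts. Alternatives were DESeq2 1.42.0, its size factors, other filters, limma 3.58.1 voom, a replicate block, a fit on the kept genes and each library left out. Named genes were all called genes, the 15 of smallest p in each direction not carried by alveolar cells (groups apart, mean of at least 3 log2 CPM), of each of 44 lists the 5 most abundant members and those called by either tool, all members of short lists and of the CXCR2, ERK and tumour lists, and Ptpn11, Cxcr1, Cxcr2, Epcam, Ptprc and others; the text uses part of them, and some are not reported here. The comparison, the rule and the lists were chosen with earlier results of these data known. Sequences are from RefSeq. At these depths the spread between replicates sets the precision.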

Additional observations from a re-analysis of the deposited data

Results flagged for a closer look

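The following genes went one way in every bulk library and the other way in every mouse of the single-cell tumour sums; the difference between the assays was not tested. Gas2 was higher in all SHP099 bulk libraries (0.52 in log2 fold change, edgeR adjusted p = 0.144) and lower in all SHP099 mice (-0.86, edgeR adjusted p = 0.0275). Mdm2, a p53 target that restrains p53, was lower in all SHP099 bulk libraries (-0.083, edgeR adjusted p = 0.825) and higher in all SHP099 mice (0.76, edgeR adjusted p = 0.0397). Mmp14, a membrane-bound matrix protease, was at -0.42 in bulk (edgeR adjusted p = 0.225) and 0.21 in tumour sums (edgeR adjusted p = 0.251). In bulk edgeR called 0 of the 3 (Gas2 and Mmp14 had an unadjusted p under 0.05), and DESeq2 called Gas2 (DESeq2 adjusted p = 0.0209). Groups of 3 were not searched for single libraries that stand apart.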

How the results depend on the processing

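The 23 bulk calls became 569 with DESeq2, 283 without a filter on low counts and 0 in a fit on genes not carried by alveolar cells, and 0 to 16 when 1 library was left out; DESeq2 size factors gave 23, a minimum of 1 CPM in all libraries 23 and voom 20. The 3 calls not carried by alveolar cells became 273 with DESeq2, 119 without a filter, 5 with at least 1 CPM in all libraries and 0 in the fit on those genes, and 0 to 2 when 1 library was left out. All 3 stayed when the rule used 2 or 10 times, each tumour cluster or vehicle cells only, and, added after seeing the data, when genes that any other cluster held at 5 times the tumour level were left out too. With a replicate block edgeR gave 24 calls, 17 shared, and 5 not carried by alveolar cells, 1 shared. Deviations of same-numbered libraries correlated at -0.03, 0.03 and 0.03, and those of differently numbered ones at -0.12 to 0.10. With 3 libraries a group these values cannot show whether the numbers pair the samples, and the labels state no pairing. The 1484 single-cell calls became 509 in cluster 21 alone, 1354 in cluster 23 alone and 1842 without a filter on low counts. They became 790 to 1328 when 1 mouse was left out, and 1407 with a replicate block. The share of alveolar cells, 14.1 points higher among epithelial cells, was 0.0186 points higher among all cells, and 7.26 to 18.1 points among epithelial cells with 1 mouse left out. No called gene reversed its sign under these alternatives. The causes were not tested. Genes with few transcripts in the 349 cells of cluster 24 are placed loosely, and with 3 libraries a group edgeR missed part of the changes planted in simulated counts.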

Other observations

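Genes of the TGF-beta, interleukin 1 and interleukin 6 systems and matrix proteases with their inhibitors had 0 edgeR calls in either list (6 of 18 at an unadjusted p under 0.05 and 4 of 12 at an unadjusted p under 0.05, against 8.92% of all genes), and 15 of 18 and 9 of 12 values were negative. Of 18 cytokine system genes DESeq2 called Tgfb3, Il1r1 and Il6 lower, and the groups did not overlap for 7, all lower, where 8.59% of all genes were apart and lower; the median was -0.61. Tgfb3, a TGF-beta ligand, stood at 54.2, 74.7 and 54.9 CPM in vehicle libraries 1, 2 and 3 and 31.1, 37.2 and 34.2 CPM in SHP099 libraries 1, 2 and 3. Of 12 metalloproteinase and inhibitor genes DESeq2 called Mmp2, Mmp12 and Timp1 lower, with a median of -0.48; Timp1 stood at 102, 112 and 52.5 CPM in vehicle libraries 1, 2 and 3 and 37.3, 32.6 and 34.5 CPM in SHP099 libraries 1, 2 and 3. Tgfb3, Il1r1, Mmp2 and Timp1 were highest in cluster 20, with 2158 CPM of Timp1 there and 54.3 CPM in tumour clusters. The mesothelial regulator Wt1, also highest there, stood at 7.52, 10.5 and 11.1 CPM in vehicle libraries 1, 2 and 3 and 1.51, 3.07 and 0.501 CPM in SHP099 libraries 1, 2 and 3, while Msln, a surface protein that the tumour cells carry, was at -0.14 ± 0.18 (SE, edgeR adjusted p = 0.855). Wt1 and Msln belong to a list of 6 smooth muscle and mesothelium genes, whose median was -0.10, with 2 values positive and 4 negative. In that list edgeR called 0 (2 of 6 at an unadjusted p under 0.05, against 8.92% of all genes). Upk3b and Myh11, also highest in cluster 20, were at -0.06 and 0.70. Oxidative phosphorylation genes had a bulk median of 0.17 with 0 called by edgeR (1 of 20 at an unadjusted p under 0.05) or DESeq2, and 7 of 20 were called higher in single-cell tumour sums, where 6.24% of all genes were.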
